A study of Mus musculus with 12 samples.

Results

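Stretches of open chromatin that lay between genes and carried a peak in every library of mouse alveolar type II (AT2) cells numbered 9337. They were taken from 83727 merged peak regions, of which they made up 11.2%, and from 35222 regions held by all 12 libraries, of which they made up 26.5%. The members were selected on 2 measured values, a peak in all 12 lists and a merged width under 2500 bp, and on their position, since a member overlapped no RefSeq protein-coding gene and lay more than 1 kb from every end of one. Presence in every list is therefore a property of the choice and not a result. The remaining regions of the same kind, held by all 12 libraries and under 2500 bp wide, were 10991 at gene ends and 13536 inside gene bodies.

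Open chromatin was mapped with Omni-ATAC-seq. Here a Tn5 transposase assembled in house inserts adapters into accessible DNA of nuclei. AT2 cells were sorted from lungs of BALB/c mice, 6 to 8 weeks old, that had received labelled 4T1 cells (a mammary carcinoma line of BALB/c origin) or labelled CT26 cells (a colon carcinoma line of BALB/c origin) through the tail vein 7 days earlier. The 4 groups were AT2 cells of distal lung or of the metastatic niche in 4T1 mice, and the same pair in CT26 mice. Each group had 3 samples described as biologically independent, each from 5 pooled lungs and 50000 sorted cells. All 12 libraries came from tumour-bearing mice, and no library of mice without tumour cells was analysed here.

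AT2 cells make and recycle pulmonary surfactant and act as stem cells of the alveolus. Much of the DNA that sets which genes a cell type uses lies outside genes, as enhancers that can act over long distances, as promoters of non-coding RNAs and as sites bound by insulator proteins. Regions of this kind carry binding sites of lineage factors, which in AT2 cells include NKX2-1, C/EBP alpha, FOXA and grainyhead-like factors. Accessibility alone does not tell these kinds of element apart.

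The peak lists held 42067 to 66911 peaks covering 31.4 to 51.9 Mb per library, and the number of reads behind them is not in the lists. The sort label was checked at gene ends. A peak lay at an end of 11 of 11 AT2 markers (among them Sftpc, Abca3 and Lamp3) in all 12 libraries, and likewise of 5 of 6 AT1 markers. The same held for 0 of 5 leukocyte markers, 2 of 4 endothelial (Kdr and Cldn5), 1 of 4 fibroblast (Col1a1), 2 of 3 club and ciliated cell markers and 1 of 4 genes of the tumours' tissues of origin (Cdx2). The part of other cells in any region below was not tested.

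Some members hold the start of a long non-coding RNA (lncRNA), and for these the sequence could be read. Of 7247 RefSeq lncRNA promoter windows more than 1 kb from protein-coding genes, 476 windows of 434 genes lay wholly inside 423 members. Each window runs from 250 bases before to 50 bases after the annotated start, in GRCm38.p6. Short motifs of lung epithelial factors were sought on both strands, given as letters in which N is any base. CACTTGA, the core bound by NKX2-1, was in 7.98% of the 476 windows, in 3.24% of 6113 lncRNA windows without a peak in any library and in 3.06% of all 32851 windows of the table. AACCNGTT, a grainyhead-like (GRHL) motif, was in 3.57%, 2.63% and 2.09% of the same sets. TTGCNNAA, a C/EBP motif, was in 16.4%, 12.8% and 10.8%. GGAATG, bound by TEAD factors, was in 20.2%, 17.1% and 14.7%. TGTTTAC, bound by FOX factors, went the other way, with 3.57%, 4.92% and 3.65%. The AP-1 letters TGANTCA were in 10.1%, 10.2% and 7.81%. None of these shares was tested, and a match is a description of letters, not of binding. The member windows also differed in base composition, with a median GC content of 52.5% against 46.3% in windows without a peak and 52.7% over all windows.

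The member windows that held both the NKX2-1 and the GRHL letters numbered 4, and they are printed to show how such a promoter reads and how far the letters lie apart. In these 4 sequences the capitals mark the NKX2-1, GRHL and C/EBP letters, and each reads 5′ to 3′ towards the gene from the RefSeq table. The window of Gm19619 is chr5:91283027-91283326 on the minus strand, 73364 bp from Btc, which encodes betacellulin, a ligand of the EGF receptor. That of Gm13003 is chr4:137165017-137165316 on the minus strand, 112146 bp from Wnt4, a Wnt ligand. Gm35785 starts in chr3:93128196-93128495 on the minus strand, 15698 bp from Crnn. The window of Gm31754 is chr16:95244470-95244769 on the plus strand, 11683 bp from the potassium channel gene Kcnj15.
Gm19619: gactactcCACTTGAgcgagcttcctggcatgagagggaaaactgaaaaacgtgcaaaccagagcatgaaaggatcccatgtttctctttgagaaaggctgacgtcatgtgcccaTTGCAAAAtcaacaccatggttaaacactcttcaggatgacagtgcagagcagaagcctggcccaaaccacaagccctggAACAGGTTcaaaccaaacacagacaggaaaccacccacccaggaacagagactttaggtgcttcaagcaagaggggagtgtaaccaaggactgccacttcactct
Gm13003: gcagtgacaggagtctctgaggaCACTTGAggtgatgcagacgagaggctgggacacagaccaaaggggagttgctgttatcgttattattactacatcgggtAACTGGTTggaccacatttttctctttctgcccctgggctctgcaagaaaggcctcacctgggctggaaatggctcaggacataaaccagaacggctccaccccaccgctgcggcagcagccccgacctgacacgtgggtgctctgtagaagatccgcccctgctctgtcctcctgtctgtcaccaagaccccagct
Gm35785: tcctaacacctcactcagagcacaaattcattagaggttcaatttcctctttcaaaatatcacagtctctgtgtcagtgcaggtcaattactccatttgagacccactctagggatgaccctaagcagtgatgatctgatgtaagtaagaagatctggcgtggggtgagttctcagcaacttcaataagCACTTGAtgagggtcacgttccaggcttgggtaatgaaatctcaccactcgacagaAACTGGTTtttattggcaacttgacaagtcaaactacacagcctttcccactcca
Gm31754: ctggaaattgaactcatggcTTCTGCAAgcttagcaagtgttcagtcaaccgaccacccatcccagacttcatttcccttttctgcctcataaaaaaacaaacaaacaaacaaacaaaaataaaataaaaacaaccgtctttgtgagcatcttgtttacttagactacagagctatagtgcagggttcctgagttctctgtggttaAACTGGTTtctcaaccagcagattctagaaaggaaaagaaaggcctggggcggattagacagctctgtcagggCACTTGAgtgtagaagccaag
Counted from the annotated start, the NKX2-1 letters of Gm19619 begin at base -242, the C/EBP letters at -135 and the GRHL letters at -55. In Gm35785 the NKX2-1 letters begin at -61 and the GRHL letters at -5. The 4 members differed widely in strength. Strength is given here as the percentile of the authors' fold enrichment within a library, where 100 is the strongest. It was taken over the 35222 regions held by all libraries. Strong and weak refer below to this fold alone, and peak length is a separate measure. The mean percentile over the 12 libraries was 95.0 ± 2.71 (SD) for the member at Gm19619, 93.7 ± 4.73 at Gm13003, 74.4 ± 7.14 at Gm35785 and 1.62 ± 2.00 at Gm31754. The same letters thus stood in members at both ends of the scale.

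A second set is shown for the letters of general promoter elements. It holds the window with the highest percentile, at BC002059, and the 3 strongest windows of snoRNA host genes, whose introns carry small nucleolar RNAs. Their capitals mark CCAAT, the GC box GGGCGG, the TATA box TATAAA and the ETS motif CCGGAAG, on both strands. BC002059 starts in chr17:16951286-16951585 (plus strand), Snhg5 in chr9:88522848-88523147 (minus strand), Snhg16 in chr11:116671410-116671709 (plus strand) and Snhg8 in chr3:123508287-123508586 (minus strand).
BC002059: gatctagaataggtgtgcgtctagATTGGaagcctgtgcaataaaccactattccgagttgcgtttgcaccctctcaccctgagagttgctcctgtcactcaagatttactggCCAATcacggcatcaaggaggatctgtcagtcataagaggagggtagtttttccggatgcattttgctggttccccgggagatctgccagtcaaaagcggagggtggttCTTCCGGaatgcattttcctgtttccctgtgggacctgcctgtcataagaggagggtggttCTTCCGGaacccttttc
Snhg5: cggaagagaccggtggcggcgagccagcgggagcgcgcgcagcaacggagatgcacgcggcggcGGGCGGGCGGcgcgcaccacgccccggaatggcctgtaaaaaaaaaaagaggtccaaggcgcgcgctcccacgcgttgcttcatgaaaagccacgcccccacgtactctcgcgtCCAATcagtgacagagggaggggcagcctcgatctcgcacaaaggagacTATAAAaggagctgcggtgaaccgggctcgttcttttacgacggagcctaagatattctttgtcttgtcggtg
Snhg16: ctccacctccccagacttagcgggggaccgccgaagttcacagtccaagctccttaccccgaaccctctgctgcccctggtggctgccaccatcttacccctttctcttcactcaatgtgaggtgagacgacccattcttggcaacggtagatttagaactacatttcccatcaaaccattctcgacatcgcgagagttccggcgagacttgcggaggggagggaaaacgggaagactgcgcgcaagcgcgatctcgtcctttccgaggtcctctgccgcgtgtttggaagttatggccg
Snhg8: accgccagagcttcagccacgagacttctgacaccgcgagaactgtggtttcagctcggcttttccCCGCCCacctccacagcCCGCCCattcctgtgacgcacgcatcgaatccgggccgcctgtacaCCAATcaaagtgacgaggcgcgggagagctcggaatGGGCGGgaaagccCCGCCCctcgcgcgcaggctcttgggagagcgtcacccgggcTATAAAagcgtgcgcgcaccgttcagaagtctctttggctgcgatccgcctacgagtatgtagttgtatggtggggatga
The BC002059 window carries the ETS letters on the opposite strand at bases -28 and 34, on either side of the start. TATAAA begins at base -23 in Snhg5 and at base -30 in Snhg8, and Snhg16 holds none of the 4 motifs. The GC box was in 34.5% of the 476 member windows, in 6.41% of windows without a peak and in 35.7% of all windows, and the ETS motif in 8.19%, 2.27% and 8.86%. CCAAT was in 36.1%, 38.8% and 37.4%, so its share hardly moved between the sets, and TATAAA in 13.2%, 18.5% and 13.6%. The member at BC002059 was at percentile 99.8 ± 0.15, with 684 to 826 bp under peaks and a fold enrichment of 9.80 to 12.7 over the 12 libraries. The members at Snhg5, Snhg16 and Snhg8 were at 92.3 ± 4.99, 90.3 ± 5.23 and 82.4 ± 5.91. Not all promoters of well-known lncRNAs ranked high: the member at Malat1, an abundant nuclear RNA, was at percentile 5.67 ± 4.75 with a median of 1724.5 bp under peaks.

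MicroRNA genes were overlapped by members in 21 cases, in 17 members. Of the 20 such genes that could be named, 19 had a mature sequence in the RefSeq table. The best-known of them are shown, with the seed (bases 2 to 8, which pair with targets) in capitals, to show which target specificities they encode. Mir210 is a hypoxia-induced gene, Mir203 is known from stratified epithelium, and Mirlet7i belongs to the let-7 family, which represses growth genes.
miR-210-3p: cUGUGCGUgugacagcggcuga
let-7i-5p: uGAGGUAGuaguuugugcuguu
miR-212-3p: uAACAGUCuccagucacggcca
miR-132-3p: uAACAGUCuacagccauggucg
miR-203-3p: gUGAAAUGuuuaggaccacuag
miR-193a-3p: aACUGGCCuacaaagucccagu
miR-212-3p and miR-132-3p share the seed AACAGUC, and their genes lie together under 1 member, chr11:75172512-75173984, 1959 bp from Ovca2. No other seed was shared among the 32 mature sequences. The member at Mir210 (chr7:141221424-141222410, 2766 bp from Rassf7) was the strongest of those carrying a microRNA gene, at percentile 89.8 with 733 to 979 bp under peaks. Those at Mir713 and Mir7229 came next, at 88.1 and 87.2. Of the others printed above, those at Mir193a, at Mirlet7i (chr10:122985322-122986591), at Mir212 and Mir132, and at Mir203 (chr12:112129576-112131383) were at 80.5, 24.6, 19.7 and 7.26. Mir9-1 (25.1) and Mir124a-3 (12.6), both best known from neurons, also lay under members. The 21 genes are 5.72% of the 367 microRNA genes that lie more than 1 kb from coding genes.

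Transfer RNA genes are short and are transcribed by RNA polymerase III. Members overlapped 92 tRNA genes, in whole or in part, which is 27.7% of the 332 tRNA genes that lie more than 1 kb from coding genes. The same share was 19.7% for lncRNA genes, 3.35% for snRNA genes, 1.51% for snoRNA genes and 1.35% for pseudogenes. These shares are descriptions without a test, and gene length differs between the classes. The 92 tRNA genes fell in 60 members, with 15 of these on chromosome 13 and 10 on chromosome 11. Of all tRNA genes on a chromosome, members overlapped 19 of 105 on chromosome 13, 18 of 52 on chromosome 11 and 2 of 53 on chromosome 6. The widest member at the end of a non-coding gene, chr3:96499558-96502041, overlapped 4 tRNA genes (for lysine, histidine, glycine and glutamate) in 2484 bp. The gene for lysine lay across the member's edge. Of the member, 2055 to 2440 bp lay under peaks in the 12 libraries.

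The other named members at ends of non-coding genes held starts or ends of lncRNAs, except the one near Tomm7, at an end of the pseudogene Gm9534. A member of 2482 bp (chr16:77328812-77331293) covered the start of Mir99ahg, the host of the miR-99a and let-7c genes, with 1244 to 2349 bp under peaks. Of the members as a whole, 2586 (27.7%) overlapped a non-coding gene and 2352 an lncRNA, while 6502 (69.6%) neither overlapped nor lay within 1 kb of any RefSeq gene. The median percentile was much the same in these classes, 47.5 for members over a non-coding gene and 48.5 for those away from all genes.

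Members were spread over a wide range of distances. The median member lay 23009 bp from the nearest protein-coding gene, and the quartiles were 8347 and 66019 bp. The most remote lay 1409356 bp away. Of the 9337, 14.4% lay within 5 kb, 14.7% between 5 and 10 kb, 40.03% between 10 and 50 kb and 107 beyond 500 kb. Among the 7173 members whose nearest gene has a strand in the promoter table, 54.8% lay upstream. Merged widths ran from 230 to 2496 bp around a median of 1036 bp. The members nearest to genes were the weaker ones: the median percentile was 36.9 within 5 kb, 48.6 to 49.9 in the bins from 5 to 500 kb and 59.3 beyond 500 kb.

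**Figure D1:**
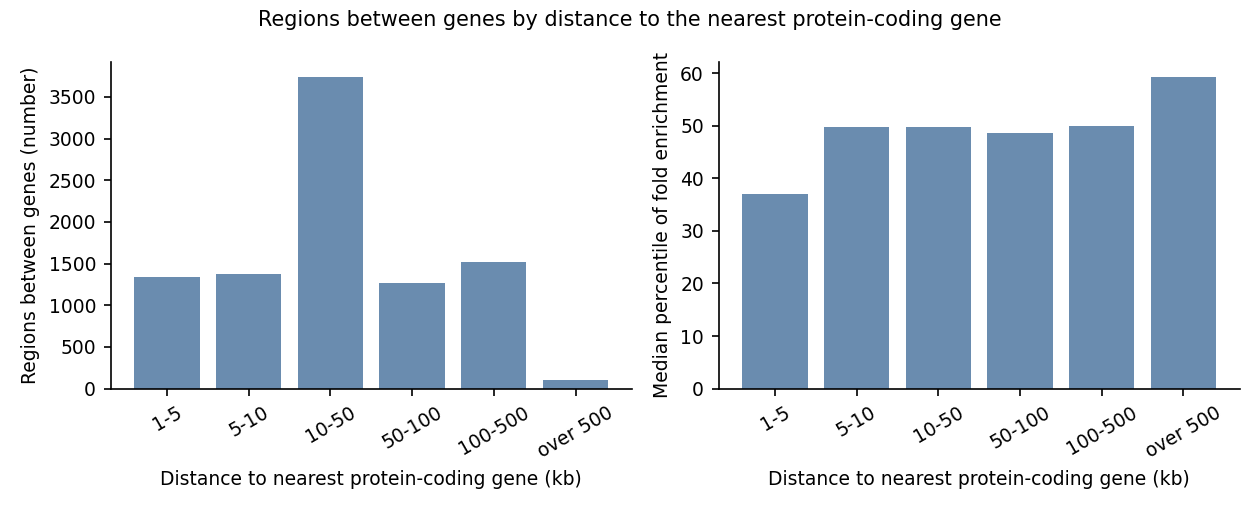
Number of regions between genes (left) and their median percentile of fold enrichment (right) by distance to the nearest protein-coding gene in kb. The bin from 10 to 50 kb holds 3738 regions, and the bin under 5 kb has the lowest median, 36.9.

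The 2 strongest members were narrow and even between libraries, while the 8 strongest ran from 230 to 1184 bp in width. The highest mean percentile belonged to chr3:5860341-5860628, 281745 bp from Pex2, with a fold enrichment of 21.5 to 26.0 and 274 to 288 bp under peaks in the 12 libraries. The second, chr17:70963666-70963895 in the lncRNA gene Gm46595, had a fold of 18.2 to 24.7 over 221 to 230 bp. Next came chr1:24612584-24613767 with a fold of 11.2 to 14.2. It overlaps the pseudogene Gm10222, and the member chr8:19784363-19785306, also among the 8 strongest, overlaps the pseudogene Gm10060. Values at sites with near-identical copies elsewhere are uncertain. The most even member of all, chr17:39846688-39847422, had 724 to 733 bp under peaks and percentile 99.8 ± 0.089. No list of regions to avoid was applied here, and whether the authors used one is not given in the sources used here. Percentile also varied with width: its median was 45.0 in members of 230 to 814 bp, 57.1 and 55.4 in those of 815 to 1036 and 1037 to 1352 bp, and 37.7 in those of 1353 bp or more.

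Against the other constitutive classes, regions between genes stood between gene ends and gene bodies in strength. The median percentile over the 12 libraries ran from 45.3 to 50.5 between genes, from 63.2 to 68.6 at gene ends and from 41.7 to 44.0 inside gene bodies. Within a library, regions between genes were 17.5 ± 3.53 points (SD over libraries, n = 12) below those at gene ends and 5.15 ± 1.19 points above those inside gene bodies. Both differences had the same sign in 12 of 12 libraries (exact sign-change permutation test, two-sided, p = 0.000488 each, 0.000651 after Benjamini-Hochberg adjustment over 4 comparisons). The difference from gene bodies depended on the measure: ranked by the −log10 p of the same peak it was -0.22 points (exact permutation p = 0.382). Libraries of 1 study share their reference and peak caller, so the 12 differences are not independent of these.

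Among regions under 2500 bp wide, peaks between genes were also shorter. Every class was cut at this merged width, which caps the length under peaks. The lengths and p-values below therefore describe only the regions kept, and the effect of the cut on the differences is not known from them. The median length under peaks in a region ran from 627 to 817 bp between genes, from 888 to 1093 bp at gene ends and from 639 to 864 bp inside gene bodies. The difference was -261 ± 17.3 bp against gene ends, negative in 12 of 12 libraries (exact permutation test, adjusted p = 0.000651). Against gene bodies it was -21.4 ± 13.4 bp, negative in 11 of 12 libraries (adjusted p = 0.000977).

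**Figure D2:**
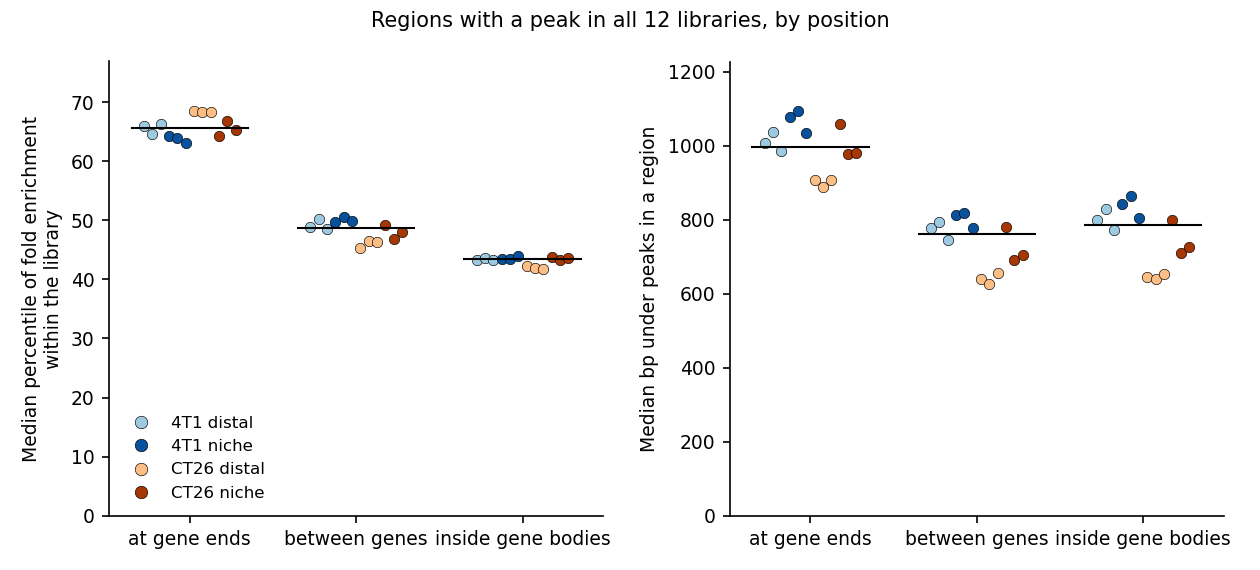
Median percentile of fold enrichment (left) and median bp under peaks (right) in the 3 classes of region held by all 12 libraries; each point is 1 library, coloured by group, and the line is the median over libraries. Regions between genes lie below those at gene ends in every library on both axes. All regions shown are under 2500 bp wide, which caps the bp under peaks.

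Members were denser around genes that AT2 cells are known for than around all genes together. The same held for several other lists given below, widely expressed control genes among them. Each member was given to its nearest protein-coding gene, and counts were set against the intergenic sequence nearest to the listed genes. Over all 21627 protein-coding genes, 21.5% had at least 1 member and the density was 6.08 members per Mb. Of 22 AT2 and surfactant genes, 13 had a member, and their 45 members stood at 41.5 per Mb. A single gene, Slc34a2, gave 12 of the 45, in 107 kb of the list's 1.08 Mb. Of 34 transcription factor genes of lung epithelium, 27 had a member, 177 in all, at 19.02 per Mb. The lists were chosen with earlier results of these data known and carry no test.

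Further lists ran from well above to below the value for all genes. Genes of the transitional alveolar state and p53 targets stood at 33.7 per Mb (12 of 18 genes), AP-1 and related factors at 36.7 (9 of 15), lipid synthesis genes at 31.2 (7 of 18) and AT1 genes at 22.6 (9 of 18). Widely expressed control genes also stood high, at 32.7 per Mb, but with 5 members in 0.153 Mb. NF-kB and acute inflammation genes stood at 24.8, interferon response genes at 18.1, Wnt pathway genes at 17.2, EGF and FGF signalling genes at 16.1 and club, ciliated and basal cell genes at 14.5. Leukocyte genes (7.01), brain genes (6.78), liver and muscle genes (5.42), fibroblast genes (4.88) and endothelial genes (4.87) were near the density of all genes. In the same order, 18.75%, 41.7%, 25%, 33.3% and 33.3% of their genes had at least 1 member, against 21.5% of all genes.

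**Figure D3:**
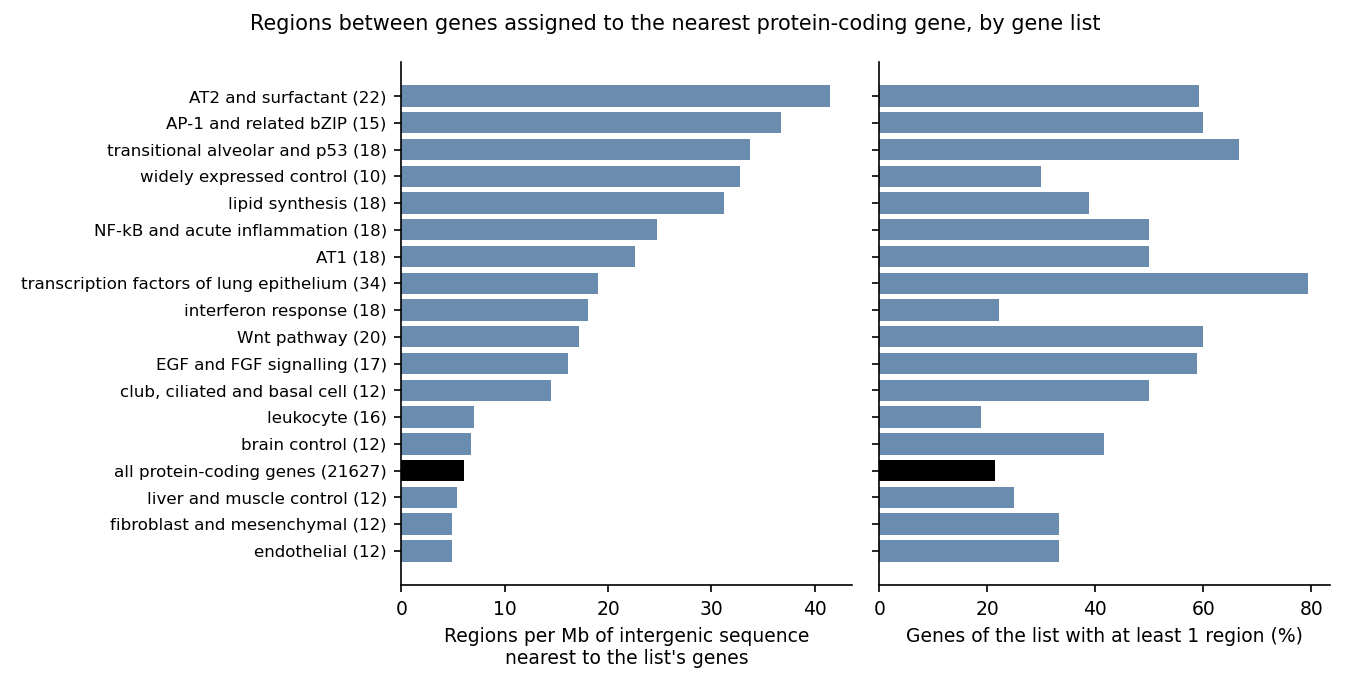
Members per Mb of nearest intergenic sequence (left) and percent of genes with at least 1 member (right) for each gene list, with the number of genes in parentheses; the black bar is all protein-coding genes. AT2 and surfactant genes have the highest density, 41.5 per Mb, and the black bar is at 6.08. Of their 45 members, 12 are nearest to Slc34a2.

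Among AT2 genes, Slc34a2 had the most members. It encodes the sodium phosphate cotransporter of the apical AT2 membrane, and 12 members lay upstream of it. The nearest, chr5:53041958-53043090, was 6263 bp away at percentile 36.4 with 603 to 969 bp under peaks. The other 11 formed a chain of neighbouring members, 1 of 2 chains with the most members, over 49.0 kb from chr5:52975526 to chr5:53024544. A chain was broken at a fixed gap, and the widest gap left within any chain was 12499 bp. In the chain at Slc34a2 the percentile ran from 1.05 to 75.3, with a median of 8.72, so most of its peaks were low on this scale. The 2 strongest, at 75.3 and 69.9, lay 39531 and 54856 bp from the gene. The second of these had 801 to 1061 bp under peaks. Summed over the chain, the length under peaks was 7360, 8272 and 7517 bp in the 4T1 distal libraries and 8620, 8866 and 8529 bp in the 4T1 niche libraries. It was 6095, 5859 and 6357 bp in CT26 distal and 6988, 7227 and 6121 bp in CT26 niche. The 2 groups of 4T1 did not overlap and those of CT26 did, and every member of the chain missed the threshold in each comparison below. Summed lengths also follow the length of the whole list.

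**Figure D4:**
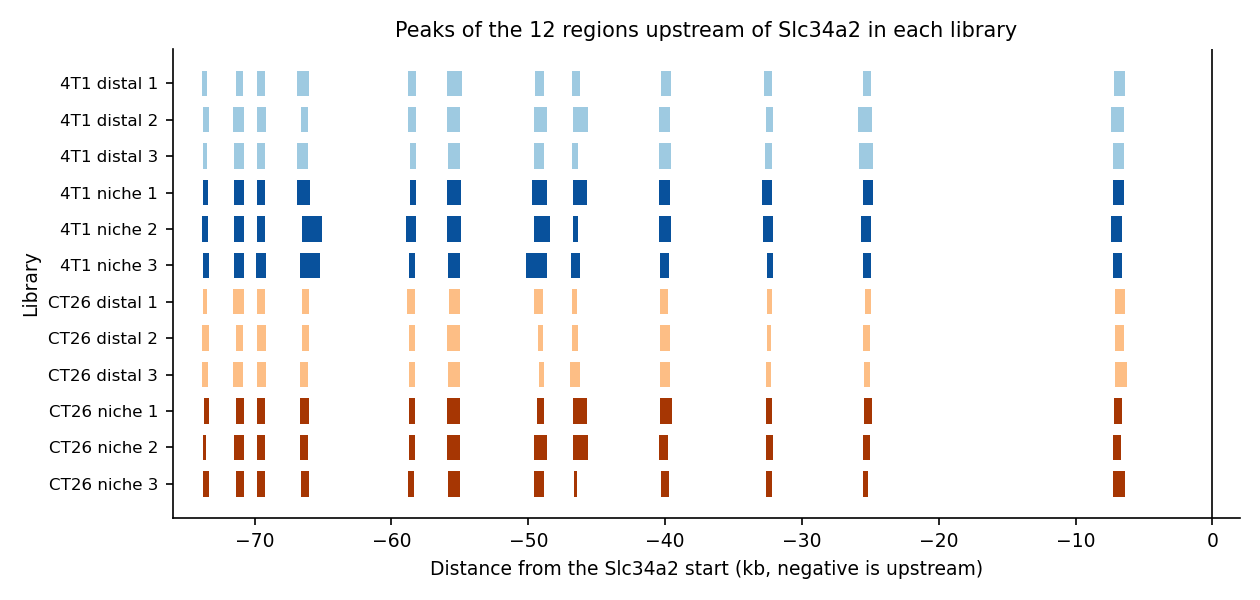
Peaks of the 12 members upstream of Slc34a2 in each library, by distance from the gene's start in kb; each bar is 1 peak, coloured by group. All 12 positions are filled in all 12 libraries, and the lengths of the peaks differ between libraries.

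The surfactant genes themselves had few members. Sftpb, which encodes a surfactant protein needed for the film, had 3, the nearest 10722 bp upstream (chr6:72292737-72293888, percentile 66.4, 869 to 1131 bp). Sftpd had 2, the nearest 3088 bp away at percentile 17.0 with 515 to 1887 bp. Sftpc, Sftpa1 and Abca3 had 0, and their nearest intergenic sequence was 1.23, 9.22 and 1.22 kb. Lpcat1, which makes the main surfactant lipid, had 6, the nearest 12423 bp upstream (chr13:73453330-73454808, percentile 54.1, 912 to 1375 bp). Fabp5, a fatty acid binding protein, had 6, and the one nearest to it, 5650 bp away, was at percentile 35.6. Scd1, a fatty acid desaturase, had 5, the nearest 2543 bp away at percentile 1.94. Napsa and Ctsh, proteases of surfactant protein processing, had 2 each. Cxcl15, Lamp3, Hc and Ppp1r14c had 1 each, and Egfl6 had 3.

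Lung transcription factor genes were flanked by many members over longer distances. Nkx2-1, the master factor of lung epithelium, had 5, of which the nearest lay 1626 bp downstream (chr12:56527955-56530309) at percentile 18.5 with 982 to 2333 bp under peaks. Its weakest, 11870 bp away at percentile 1.90, was nonetheless wide, with 750 to 1959 bp. Foxa2, a factor that opens chromatin for others, had 15 between 1434 and 159212 bp away, at percentiles of 2.60 to 81.5. Id2, a marker of the distal lung tip, had 17, and the Iroquois genes Irx1, Irx5, Irx3 and Irx2 had 14, 11, 10 and 7. Klf5 had 10, Cebpb 8, Sox2 8, Klf4 7, Sox9 7 and Cebpa 3. The member nearest to Klf4 (chr4:55514732-55515262, 11875 bp downstream) was the strongest of those nearest to a gene of the list, at percentile 99.1 with 377 to 487 bp under peaks. Foxp1, Foxp2, Pparg, Grhl1, Srebf1, Srebf2 and Cebpd had 0.

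Over all genes, Myc, a regulator of cell growth, had 22 members, with Id2 and Klf14 next at 17 each. Genes with 5 or more numbered 374, and 28.6% of the members were nearest to them. Most members stood alone: 5356 were in no chain, 3491 were in chains of 2 to 4 and 490 in chains of 5 or more. The median percentile was 52.7, 42.0 and 35.9 in these classes. The other chain of 11 members lay between Arf6 and Gm46353 (chr12:69436060-69514203) and spanned 78.1 kb. The chains next in number of members lay at Klf14 (10, chr6:31061517-31110271), at Armc2 and Foxo3 (10, chr10:42072122-42148868), at Ly86 (9, chr13:37452144-37507656) and at Parva and Tead1 (9, chr7:112593078-112663903). Foxo3 is a stress-response factor and Tead1 a partner of YAP. In the Klf14 chain the percentile fell as low as 0.060 at chr6:31077860-31078666, a member that was weak and yet even, with 687 to 800 bp under peaks.

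The members took a smaller share of the covered length in niche than in distal libraries. That share was 17.995 ± 0.28% (SD, n = 3) in 4T1 distal, 16.2 ± 0.14% in 4T1 niche, 19.96 ± 0.69% in CT26 distal and 18.5 ± 0.51% in CT26 niche. The difference was -1.75 percentage points in 4T1 and -1.44 in CT26, and in each model the groups did not overlap. These values are a description with no test, since the rule asks for a peak in every library and a longer list then lowers the share. The total covered length moved with it, 44.2 ± 1.98 Mb in 4T1 distal against 50.9 ± 1.60 Mb in 4T1 niche, and a change in the members cannot be told apart from it. With only peaks of −log10 q of at least 5, the CT26 difference was -0.11 points.

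Single members were compared by their length in bp under peaks, as log2 values centred on each library's median and fitted with limma over all 35222 regions. Fold enrichment was not compared between libraries, since it is the authors' value within a list. Few members passed the threshold of an adjusted p under 0.05, with 3 libraries in each group. In 4T1, 4 members rose in the niche and 0 fell at this threshold, against 0.0341% of all regions called. In CT26, 41 rose and 8 fell (background 0.525%). Over both models 13 rose and 1 fell (0.142%), and between CT26 and 4T1 1 was higher and 20 lower in CT26 (0.264%). The niche effect itself differed between the models at 7 members, being higher in CT26 at 6 (0.0852%). The members called were 0.0428%, 0.525%, 0.150%, 0.225% and 0.0750% of the 9337, near the background in each case. The median change of the members was -0.03, -0.04, -0.04 and 0.01, against -0.02, -0.04, -0.02 and 0.03 over all regions.

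The scaling sets the direction of some of these counts. With lengths divided by total covered length, the split over both models was 57 higher and 881 lower, that in CT26 27 and 20, and that between CT26 and 4T1 2495 and 114, with a median over all regions of -0.14, -0.14 and 0.21. Without scaling it was 82 and 1, 154 and 3, and 1 and 456, with medians of 0.10, 0.14 and -0.16. The changes below are relative to the median region. Several passed under fewer than 50% of the alternatives in which they could be tested. The counts were 7 of 21 for the member near 1700001O22Rik, 8 of 21 near Rnf19b, 8 of 19 near Elk3 and near Smbd1, and 9 of 20 near Ptma. Leaving out 1 library moved the CT26 niche count between 26 (without CT26 niche 1) and 87 (without CT26 distal 2).

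The largest niche change in 4T1, and one seen in both models, was at chr10:24446002-24447460, in the lncRNA gene Gm15270 and 143219 bp from Moxd1, a monooxygenase gene. The bp under peaks were 381, 465 and 410 in 4T1 distal and 1459, 1296 and 1214 in 4T1 niche. In CT26 they were 263, 268 and 300 in distal and 618, 584 and 591 in niche libraries. Niche and distal libraries did not overlap in either model, which was also a condition for naming a member. Its log2 change was 1.59 ± 0.11 (SE) in 4T1 (limma, adjusted p = 0.000935), 0.93 ± 0.11 in CT26 (adjusted p = 0.00515) and 1.26 ± 0.076 over both (adjusted p = 0.000289). The change over both models passed under 20 of the 20 alternatives in which this member could be tested, with a limma adjusted p of up to 0.0448.

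A second member rose over both models, chr17:81220302-81221848, 151257 bp from Slc8a1, a sodium calcium exchanger. It had 516, 707 and 604 bp under peaks in 4T1 distal against 1311, 1286 and 1337 in 4T1 niche, and 500, 312 and 355 in CT26 distal against 1266, 1505 and 1283 in CT26 niche. The niche libraries were all above the distal ones. Over both models the log2 change was 1.34 ± 0.12 (limma, adjusted p = 0.00272). It passed in CT26 alone (1.64 ± 0.18, adjusted p = 0.00335) and missed the threshold in 4T1 alone.

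For the comparison over both models, members were named only where the groups stood apart in each model. That was so in 9 of the 14 members that passed. The named rises include 4 more members. One lay 18590 bp upstream of Il33, a cytokine that AT2 cells release as an alarmin, in the lncRNA gene Gm41832 (chr19:29905561-29906523). It had 508, 553 and 567 bp in 4T1 distal, 941, 790 and 866 in 4T1 niche, 259, 223 and 307 in CT26 distal and 676, 584 and 557 in CT26 niche, a log2 change of 0.82 ± 0.094 (limma, adjusted p = 0.00947). The niche libraries of each model lay above its distal ones. The others lay 135202 bp from Mycn, a Myc family gene (chr12:13077038-13078806, 0.65 ± 0.092), 2140 bp from She (chr3:89860986-89861802, 0.87 ± 0.12) and 24407 bp from 1700016C15Rik (chr1:177702399-177703730, 0.99 ± 0.14). The member that fell, chr10:93312858-93313676, lay 1699 bp from Elk3, an ETS factor gene. It had 754, 731 and 672 bp in 4T1 distal against 358, 351 and 351 in 4T1 niche, and 351, 628 and 558 in CT26 distal against 388, 339 and 321 in CT26 niche. Its change was -0.89 ± 0.13 (limma, adjusted p = 0.0362). In CT26 the lengths in bp overlapped between the groups, which stood apart only as log2 values centred on each library's median.

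The remaining 3 members that rose in the 4T1 niche lay 21525 bp from 2300002M23Rik (chr17:35590470-35592006, log2 change 1.0001 ± 0.10), 2910 bp from Dzip1 (chr14:118928447-118929964, 0.97 ± 0.12) and 21878 bp from Rnf19b (chr4:129035097-129036266, 0.87 ± 0.11). The first had 749, 699 and 720 bp in distal and 1497, 1537 and 1512 bp in niche libraries of 4T1. In CT26 it had 763, 613 and 740 bp in distal and 729, 804 and 709 bp in niche libraries. Its peaks were about the same length in every library but those of the 4T1 niche.

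In CT26, the largest rises were at members whose peaks were short in CT26 distal libraries. These libraries also had the shortest lists, and their median length over all members was 641, 627 and 657 bp against 691 to 817 bp in the other 9; the part of this in the single changes was not tested. At chr3:98245617-98247538, 8869 bp from Reg4, the lengths were 343, 251 and 647 bp in CT26 distal and 1520, 1403 and 1706 bp in CT26 niche, with 1557 to 1879 bp in the 4T1 libraries (1.83 ± 0.27, limma, adjusted p = 0.0160). The member 67836 bp from Klf5 (chr14:99381248-99382329), the gene of an epithelial zinc finger factor, had 317, 240 and 253 bp in CT26 distal and 975, 942 and 976 bp in CT26 niche. It changed by 1.67 ± 0.18 (adjusted p = 0.00389), and by 0.94 ± 0.13 over both models (adjusted p = 0.0273). In 4T1 it had 879, 1056 and 586 bp in distal and 897, 1066 and 1021 bp in niche libraries, which overlap, so the groups stood apart in CT26 only. Of the 222 members nearest to the AT2 and lung factor genes, 1 passed in a niche comparison, this one, which is near the background of 0.525% in CT26. Further named rises lay 4114 bp from Smbd1 (1.62 ± 0.27) and 110684 bp from Gpr158 (1.502 ± 0.21).

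Falls in the CT26 niche were smaller and fewer. At chr1:150512709-150513583, 46488 bp from Prg4, the lengths were 757, 582 and 567 bp in CT26 distal against 274, 216 and 335 bp in CT26 niche (-1.40 ± 0.19, limma, adjusted p = 0.0126). In 4T1 they were 391 to 540 bp in distal and 442 to 510 bp in niche libraries, which overlap. The other 5 named falls lay nearest to Dph6 (-0.97), 1700001O22Rik (-0.95), Las1l (-0.83), Cntnap2 (-0.72) and Pipox (-0.62).

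Between the models, the members that passed were nearly all longer in 4T1, with the reservation on scaling given above. At chr11:112507786-112508971, 273239 bp from Sox9, a factor of the distal lung tip, the 4T1 libraries had 940, 1151 and 809 bp (distal) and 814, 774 and 1086 bp (niche). The CT26 libraries had 211, 432 and 440 bp (distal) and 258, 241 and 291 bp (niche). The models did not overlap, and the log2 difference was -1.43 ± 0.19 (limma, adjusted p = 0.0216). The same held for members 1324 bp from Gm46977 (-1.01 ± 0.14), 3577 bp from Arid3b (-0.93 ± 0.14) and 24673 bp from Ptma (-0.83 ± 0.13). Members were named only where the models stood apart, so this separation is part of the choice. Of the 21 members that passed between models, 5 had it. Tumour line and mouse cohort differ together between the models and cannot be told apart.

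**Figure D5:**
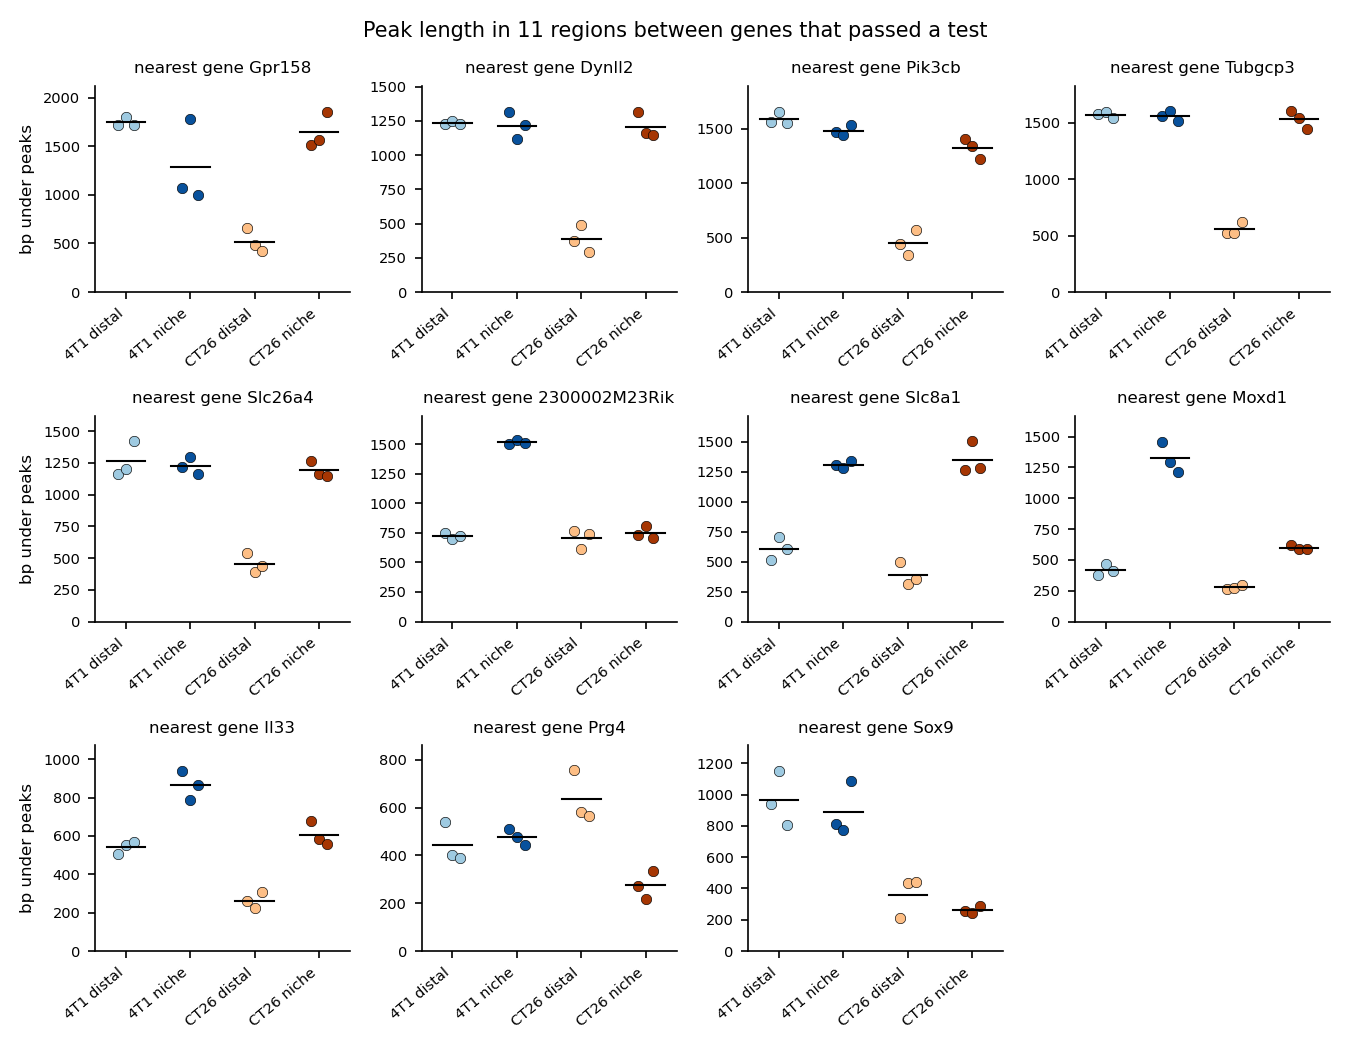
Length in bp under peaks in each library for 11 members that passed a test, each panel named by its nearest gene; points are libraries and the line is the group mean. The panels of Dynll2, Pik3cb, Tubgcp3 and Slc26a4 show short peaks in CT26 distal libraries alone.

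Members near the listed genes passed about as rarely as regions in general, for which the shares were 0.0341% to 0.525%. Of the 45 members nearest to AT2 and surfactant genes, 0 passed in any comparison, near what these shares give, with a median change over both models of -0.10 against -0.02 over all regions and a range of -0.38 to 0.56. Of the 177 nearest to lung transcription factor genes, 1 rose over both models (Klf5) and 0 fell, with a median of -0.01. None of the 37 at transitional state and p53 genes and none of the 35 at AP-1 genes passed by limma in any comparison. At an unadjusted p under 0.05, 15.4% of all members and 15.2% of all regions would be called over both models. The shares were 5.13% and 5.21% in 4T1 alone, and 16.5% and 16.2% in CT26 alone. If no region changed, a p under 0.05 would by itself call a smaller share than that in CT26 or over both models. Members that missed the adjusted threshold are therefore not shown to be unchanged.

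The 3 widest members were 2491, 2493 and 2496 bp, and the next regions, left out, were 2501, 2502 and 2508 bp. Just inside the distance limit lay members 1005 bp from Med8 and 1006 bp from Phactr4, and just outside it regions 991 bp from Clk1 and 991 bp from Dlc1. Regions between genes that missed a single library numbered 1606, and in 743 of them the library without a peak was CT26 distal 2, which has the shortest list. Their median fold enrichment was 4.16 and their median length 472.5 bp, against 5.29 and 736 bp for the members. Without the condition on that library there would be 10080 members.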

How the data were processed

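Omni-ATAC-seq of AT2 cells gave 12 lists of broad peaks in GRCm38 coordinates, called per library. MACS2 and bedtools are named without versions in the submitters' processing notes, and for the aligner and filters the sources used here give nothing. Of the deposited columns, start and end give the authors' peaks in bp, the fold enrichment is a ratio the authors' caller wrote for each peak, and its −log10 p and −log10 q are the authors' too. Every peak listed had a −log10 q of at least 1. The lists hold no read counts, so depth is unknown and no counting interval was computed. The deposited score column was not used.

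Peaks of the 19 autosomes and X were merged where they overlapped by at least 1 bp. Members were set by the rule in the report, with 21627 RefSeq protein-coding genes of GRCm38.p6 as the reference. The members, gene lists, motifs and named regions were chosen with earlier results of these data known. A region's fold is that of its strongest peak in a library. Regions held by all 12 libraries were tested in R 4.3.3 by limma 3.58.1 (log2 of bp under peaks, centred on the library median, 4 group means, eBayes with trend), and p-values were adjusted by Benjamini-Hochberg over all 35222 regions at 0.05. The fit was tested on simulated data. Other analysis used Python 3.11.15, numpy 2.4.6, pandas 2.3.3 and scipy 1.17.1.

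Named members are the 8 of highest percentile, the 6 largest rises and 6 largest falls in each of the 4 comparisons among members that passed with groups apart, the 6 longest chains, the member nearest to each AT2 and lung factor gene, members over microRNA genes and the 6 widest at ends of other non-coding genes. For this choice, groups were judged to be apart on the centred log2 values. The printed windows and the most even member were chosen after their values were seen. Regions on chromosome 18, and some others that the rules pick, were counted but are not reported here by name. Alternatives were other scalings, stricter or equal-sized lists, 500 bp added, a filter of 3 libraries, no trend, a replicate block, a cover of at least 50% of a region, other class limits and leaving out each library.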

Additional observations from a re-analysis of the deposited data

Results flagged for a closer look

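The niche effect on peak length differed between CT26 and 4T1 at 7 members, by the interaction term of the limma fit (adjusted p from 0.00105 to 0.0476, over 35222 regions, of which 30 passed). In 6 of them the CT26 effect was the larger. The clearest was chr8:12608851-12610557, 3720 bp from Tubgcp3, a gamma-tubulin complex gene. It had 527, 527 and 623 bp under peaks in CT26 distal and 1602, 1544 and 1447 bp in CT26 niche, while the 4T1 libraries had 1547 to 1597 bp (distal) and 1516 to 1607 bp (niche). The 3 CT26 distal libraries stood apart from the other 9. The effects differed by 1.36 ± 0.10 (limma, log2, SE), and 778 bp of the region lay under peaks in all 9 other libraries and in none of CT26 distal, beside 486 bp shared by all 12.

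The same arrangement was seen at chr11:87967720-87969053 near Dynll2, with 374, 487 and 292 bp in CT26 distal against 1115 to 1317 bp elsewhere (difference of effects 1.59 ± 0.23). At chr9:99145678-99147425 near Pik3cb, a PI3-kinase gene, CT26 distal had 440, 337 and 568 bp and the rest 1222 to 1657 bp (1.58 ± 0.21). At chr12:31567395-31568892 near Slc26a4, CT26 distal had 539, 388 and 437 bp and the rest 1146 to 1424 bp (1.33 ± 0.17). In each of these, 601 to 738 bp were under peaks in the other 9 libraries and in none of CT26 distal. At chr2:21941228-21943082 near Gpr158 the effects differed by 2.07 ± 0.30. The Gpr158 member also had shorter peaks in 2 of the 3 4T1 niche libraries, 1069 and 994 bp against 1783 bp.

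The reverse was seen at chr17:35590470-35592006 near 2300002M23Rik, where the effects differed by -1.09 ± 0.15 and 687 bp lay under peaks in all 3 libraries of the 4T1 niche and in no other.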

How the results depend on the processing

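Counts of members that passed are given for the niche in 4T1, the niche in CT26, the niche over both models, CT26 against 4T1 and the difference of effects, 4, 49, 14, 21 and 7 as reported. Where a setting moved them by over 1.5 times they were as follows, and the cause was not tested. Without scaling they were 157, 83, 457 and 11 in the last 4 comparisons. Divided by total covered length they were 1 in 4T1, 938 over both and 2609 between models. With −log10 q of at least 5, which tests fewer regions, they were 15, 9, 11 and 2 in the last 4 comparisons. With equal numbers of peaks, which also tests fewer, there were 32 in CT26. There, 34 of the 49 could be tested and 31 of them passed. With 500 bp added they were 9, 25 and 12 in 4T1, over both and for the difference, and with 500 bp added and regions of at least 3 libraries together 27, 92, 1201 and 28 in all but CT26. That last setting also turned the split, to 25 higher and 67 lower over both and 1140 and 61 between models, against 13 and 1, and 1 and 20. Where peaks must cover at least 50% of a region, they were 0, 4, 1, 1 and 1. Of the 4, 49, 14, 21 and 7 members called, only 0, 5, 0, 1 and 0 met this condition and were tested.

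With the replicate number as a block they were 0, 2, 1, 0 and 0. Whether the numbers pair the samples was not tested. In 4T1, same-numbered deviations correlated at 0.032 to 0.043, each best with its own number, and those of unlike numbers at -0.028 to -0.0078. In CT26, same-numbered deviations correlated at -0.016 to 0.0045 and those of unlike numbers at -0.012 to 0.019.

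Leaving out 1 library gave 1 to 7 in 4T1, 26 to 87 in CT26, 5 to 51 over both, 1 to 100 between models and 1 to 34 for the difference. In 4T1 the count was 1 without 4T1 distal 1, niche 2 or niche 3, 2 without 4T1 niche 1 or CT26 distal 2, and 7 without CT26 distal 1. In CT26 it was 83 without CT26 distal 1, 87 without distal 2 and 26 without niche 1. Over both it was 5 to 9 without 4T1 distal 1, any 4T1 niche library, or CT26 niche 1 or 3, and 43, 51 and 28 without CT26 distal 1, 2 and 3. Between models it was 12, 7, 1 and 8 without 4T1 distal 1, distal 2, niche 1 and niche 2, and 49, 56, 38 and 100 without CT26 distal 1, 2, 3 and niche 1. The difference fell to 1 or 2 without 4T1 distal 1 or 2, any 4T1 niche library or CT26 niche 1, and rose to 27, 34 and 18 without CT26 distal 1, 2 and 3.

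Of 522 recomputed values of the 26 named changes, 0 reversed and 151 missed the threshold, 25 of these with the block. Leaving out 1 library ended 2 (without CT26 distal 3) to 13 (without 4T1 niche 1 or 2) of the 26. The class comparisons kept their sign and side of the threshold, except the percentile against gene bodies by −log10 p (-0.22, exact permutation p = 0.382). Unknown depth limits every comparison of lengths between libraries.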
